A study of Mus musculus with 24 samples.

Results

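The 7 genes described here, Prss34, Mcpt8, Fcer1a, Ms4a2, Cpa3, Gata2 and Cd200r3, are marker genes of basophils and mast cells, taken by symbol from a table of 24421 genes counted in T cells of mouse bone marrow. They were chosen by their measured counts, seen to be high in the CD8 libraries of mice given both drugs and near 0 in those of untreated mice, so the CD8 comparisons that share those libraries are described without a test. The T cells were FACS-sorted from CByB6F1 female mice aged 2 to 5 months with bone marrow failure (BMF), an immune-mediated loss of marrow. Per the series' design text the treatment was ruxolitinib (RUX, an inhibitor of the kinases JAK1 and JAK2) at a low dose plus cyclosporine (CSA, an inhibitor of calcineurin). The labels give 4 treatments in each of 2 sorted cell types, RUX+CSA, CSA, RUX and untreated, with no dose. All groups share the strain, the sex and the marrow failure. The labels do not say how the failure was induced, and no library of healthy mice was analysed here. Each library is a pool of cells from 2 to 3 mice, and each of the 8 groups has 3 pools, numbered 1 to 12 in CD8 and 13 to 24 in CD4.

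Basophils are rare granulocytes that mature in the marrow, and mast cells mature in tissues from marrow progenitors. Both carry the high-affinity IgE receptor, which releases histamine, lipid mediators and cytokines when antigen cross-links bound IgE. Basophils respond to interleukin 3, whose receptor signals through JAK2. None of the 7 genes is known as a marker of T cells.

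The 7 genes divide by role. Prss34 (mMCP-11, chr17:25298394-25300161, plus strand) and Mcpt8 (mMCP-8, chr14:56082164-56085197, minus strand) encode granule serine proteases known in the mouse mainly from basophils. Cpa3 (chr3:20215616-20242181, minus strand) encodes carboxypeptidase A3, a granule protease of mast cells and basophils. Fcer1a (chr1:173221271-173227229, minus strand) encodes the IgE-binding alpha chain of the high-affinity IgE receptor, and Ms4a2 (chr19:11615521-11623719, minus strand) its signal-amplifying beta chain. Gata2 (chr6:88198664-88207032, plus strand) encodes a transcription factor of blood stem cells, mast cells and basophils that binds DNA at GATA motifs. Cd200r3 (chr16:44943678-44981380, plus strand) encodes a receptor of basophils and mast cells. Coordinates are mm10 gene spans from the count table, whose counts are sums over exons. No member shares exon bases with another gene in that table.

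The bases just upstream of 4 of the genes are shown because GATA2 is itself a member and its motif can be looked for beside the others. The windows are the 250 bases before the gene start in RefSeq (GRCm38.p6), written 5′ to 3′ on the strand of the gene, with AGATAA in capitals on either strand (TTATCT where it lies on the other strand). Prss34 (chr17:25298144-25298393, plus) and Mcpt8 (chr14:56085198-56085447, minus) are the most abundant members, Ms4a2 (chr19:11623720-11623969, minus) has the most matches, and Cpa3 (chr3:20242182-20242431, minus) is another granule protease.
Prss34: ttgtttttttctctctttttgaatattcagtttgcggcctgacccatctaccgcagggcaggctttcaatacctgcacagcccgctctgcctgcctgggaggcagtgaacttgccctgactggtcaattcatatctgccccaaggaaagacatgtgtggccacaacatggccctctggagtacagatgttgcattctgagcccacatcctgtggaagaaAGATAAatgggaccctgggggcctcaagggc
Mcpt8: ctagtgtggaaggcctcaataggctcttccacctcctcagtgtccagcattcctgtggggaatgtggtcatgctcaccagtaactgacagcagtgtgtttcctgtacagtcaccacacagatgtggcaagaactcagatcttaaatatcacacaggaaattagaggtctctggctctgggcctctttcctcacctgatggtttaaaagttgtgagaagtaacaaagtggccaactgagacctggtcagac
Ms4a2: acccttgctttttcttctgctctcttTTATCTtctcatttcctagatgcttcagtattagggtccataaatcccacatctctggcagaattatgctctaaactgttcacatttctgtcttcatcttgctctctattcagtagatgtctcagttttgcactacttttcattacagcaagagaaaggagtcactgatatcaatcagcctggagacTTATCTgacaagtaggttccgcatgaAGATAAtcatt
Cpa3: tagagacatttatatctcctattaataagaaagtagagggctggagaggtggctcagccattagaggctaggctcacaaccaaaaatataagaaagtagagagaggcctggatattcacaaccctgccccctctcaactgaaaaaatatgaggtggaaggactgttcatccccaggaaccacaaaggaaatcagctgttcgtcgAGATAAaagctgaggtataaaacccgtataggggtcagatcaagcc

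AGATAA was found in the windows of 5 of the 7 genes, against 10.0% of the 32851 RefSeq windows of the same length in all genes. In Prss34 the match began 31 bases before the gene start, in Cpa3 46 and in Cd200r3 39 bases before it, all on the strand of the gene. Ms4a2 had 3 matches, 11 bases before the start on its own strand, and 37 and 224 bases before it on the other strand, and Fcer1a had 1 on the other strand at 92 bases. TGATAA, the other form searched on both strands, was found in 1 member, Cd200r3, 115 bases before the start on the other strand, against 7.9% of all windows. Neither form was in the windows of Mcpt8 and Gata2. The forms do not overlap each other, and a match is a run of letters, not evidence of binding.

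**Figure D1:**
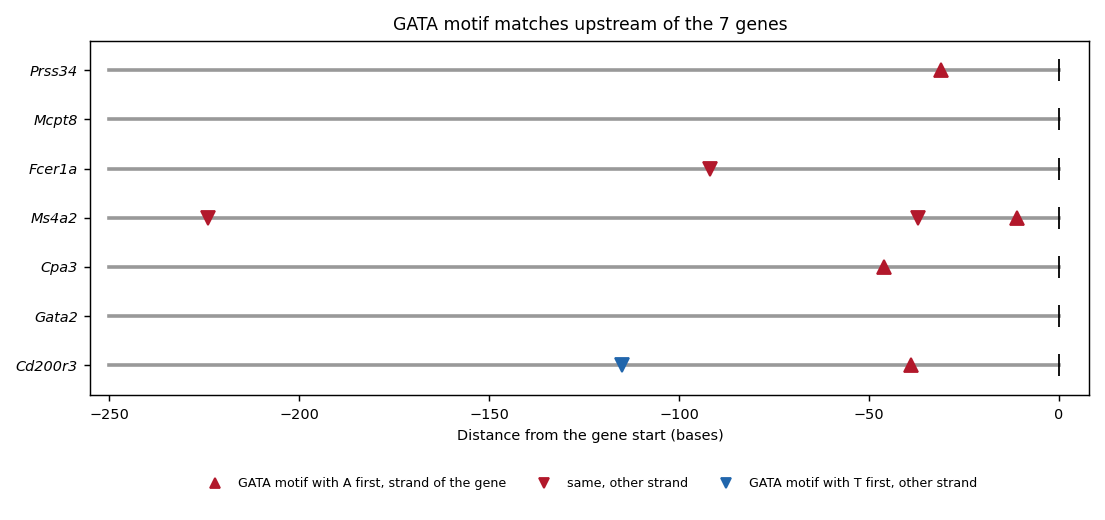
Matches to AGATAA (red) and TGATAA (blue) in the 250 bases before the start of each gene, by distance from the start in bases; triangles point up for the strand of the gene and down for the other strand. In 4 genes a red match lies within 46 bases of the start, in Fcer1a it lies 92 bases away, and Mcpt8 and Gata2 have none.

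Libraries held 16912085 to 34550183 counted read pairs, so 3 counts, used here as the floor, are 0.0868 to 0.177 counts per mega read pairs (CPM). The sort labels fitted the coreceptor genes, with Cd8a at 994 to 1099 mean CPM in the CD8 groups and 1.82 to 4.61 in the CD4 groups, and Cd4 at 0.533 to 0.923 mean CPM in the CD8 groups and 1313 to 1545 in the CD4 groups. T cell identity genes summed to 5917 to 9028 CPM in every library. Marker genes of other marrow cells differed between treatments: 14 neutrophil granule genes summed to 4362 to 5873 CPM in CD8 RUX+CSA, 854 to 3446 in CD8 CSA, 1693 to 3121 in CD8 RUX and 12.6 to 1472 CPM in CD8 untreated libraries. The CD4 untreated pools stood apart from each other, at 1605 (pool 13), 94.1 (pool 14) and 8677 CPM (pool 15). In CD8, RUX pool 7 and CSA pool 6 each differed from the other pools of their label and were nearer to the other single drug. The listed macrophage and monocyte genes summed to 1232 CPM in RUX pool 7 and to 616 and 490 CPM in the other RUX pools. They summed to 625 CPM in CSA pool 6 and to 1338 and 1347 CPM in the other CSA pools. Ly6c2 alone reached 1056 CPM in CD8 RUX and 1204 CPM in CD8 CSA. C1qa, C1qb and C1qc averaged 2.16, 4.26 and 3.85 CPM in CD8 RUX, so these sums are not a measure of macrophages. Whether these libraries carry the right label was not tested, and tests of the single drugs in CD8 are given with and without both.

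All 7 genes had at least 1 read pair in every RUX+CSA library. In untreated libraries 2, 2 and 5 of the 7 had a read pair in CD8 (pools 1 to 3), and 2, 1 and 7 in CD4 (pools 13 to 15). Summed over the 7 genes, CD8 libraries held 61.6 ± 16.1 CPM under RUX+CSA, 16.3 ± 18.5 under CSA, 16.4 ± 9.86 under RUX and 0.466 ± 0.518 CPM untreated (SD, n = 3 each). CD4 libraries held 122.7 ± 39.3 CPM under RUX+CSA, 38.7 ± 27.9 under CSA, 33.6 ± 11.9 under RUX and 2.47 ± 3.84 CPM untreated (SD, n = 3 each). In such bulk samples, more cells of a type and more RNA per cell cannot be told apart. Per kilobase of exon, the levels in CD4 RUX+CSA libraries were 50.5 ± 18.5 CPM for Prss34, 41.3 ± 10.0 for Mcpt8, 8.41 ± 2.14 for Cpa3, 3.74 ± 1.78 for Fcer1a, 1.64 ± 0.569 for Gata2, 1.40 ± 0.562 for Ms4a2 and 0.621 ± 0.531 for Cd200r3 (SD, n = 3). The order was the same in CD8 RUX+CSA libraries, where Prss34 stood at 23.6 ± 9.09 and Cd200r3 at 0.465 ± 0.0972 CPM per kilobase.

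**Figure D2:**
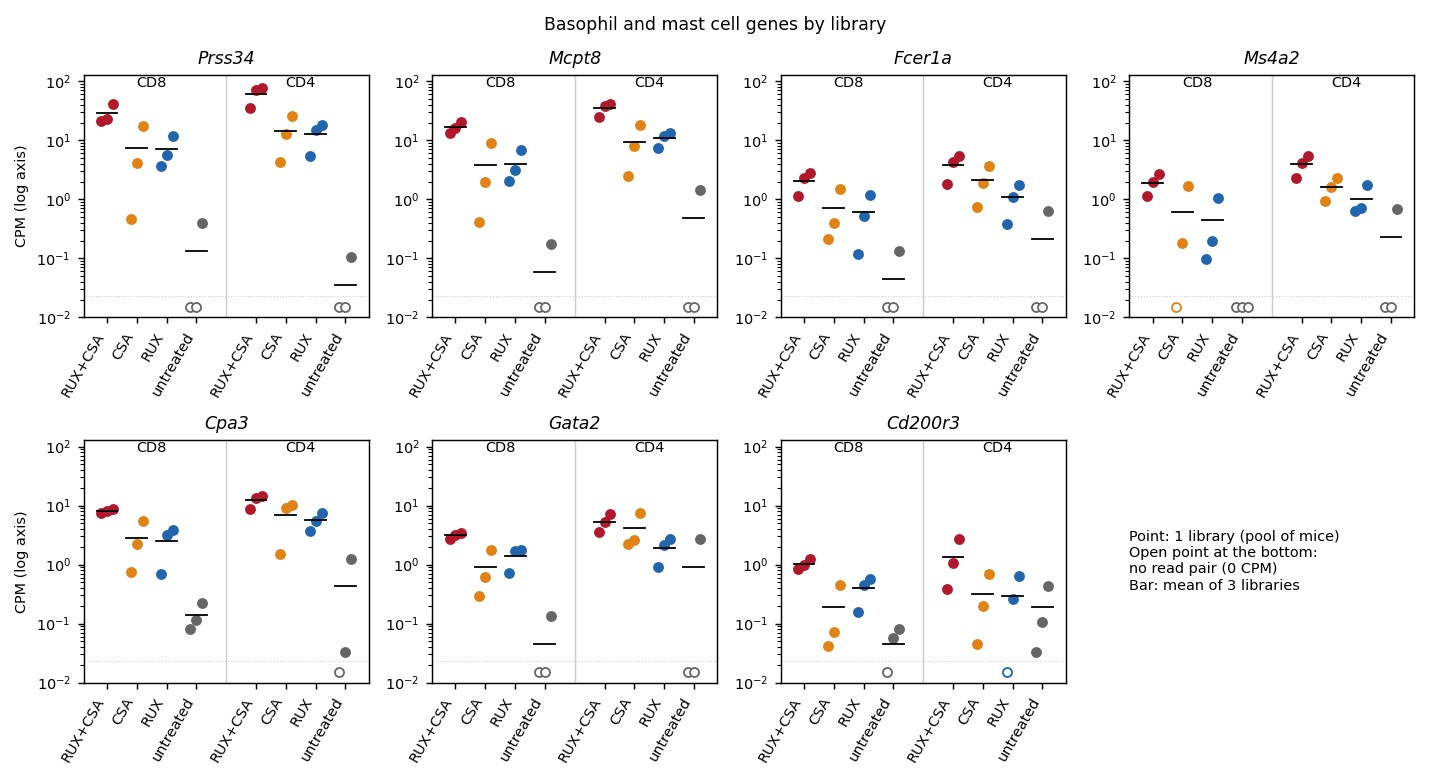
Level of each gene in CPM (log axis) in every library, by cell type and treatment; points are libraries, bars are means of 3, and open points at the bottom are libraries with no read pair. The RUX+CSA points are the highest group mean of each gene within each cell type, and most untreated points of the first 4 genes and Gata2 lie at 0.

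Prss34 was the most abundant member. In CD8 cells it stood at 41.4, 23.2 and 21.4 CPM in the RUX+CSA pools, 4.05, 0.459 and 17.3 in the CSA pools, 5.60, 12.0 and 3.60 in the RUX pools, and 0, 0 and 0.399 CPM in the untreated pools. The 3 pools of each treated group lay above all 3 untreated ones, and the 3 RUX+CSA pools lay above the CSA and RUX pools. In CD4 cells it stood at 72.1, 76.4 and 35.6 CPM in the RUX+CSA pools, 25.6, 4.23 and 12.6 in the CSA pools, 15.1, 18.1 and 5.37 in the RUX pools, and 0, 0 and 0.105 CPM in the untreated pools. The order of the groups repeated, with no treated CD4 pool as low as an untreated one. The untreated value of 0.105 CPM is 2 read pairs, so the ratio of summed counts of CD4 RUX+CSA to CD4 untreated, 2496, has a wide 95% exact counting interval of 691 to 20615.

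Mcpt8, the other basophil protease, stood at 20.6, 16.3 and 13.2 CPM in the CD8 RUX+CSA pools, 1.99, 0.418 and 9.05 in the CSA pools, 3.09, 6.83 and 2.04 in the RUX pools, and 0, 0 and 0.177 CPM in the untreated pools. In CD4 cells it stood at 38.2, 40.6 and 25 CPM in the RUX+CSA pools, 18.0, 2.50 and 7.95 in the CSA pools, 13.3, 11.9 and 7.35 in the RUX pools, and 0, 0 and 1.42 CPM in the untreated pools. The groups did not overlap between any treatment and untreated in either cell type. Cpa3 stood at 8.10, 8.62 and 7.53 CPM in the CD8 RUX+CSA pools, 2.21, 0.752 and 5.52 in the CSA pools, 3.14, 3.83 and 0.680 in the RUX pools, and 0.0806, 0.115 and 0.222 CPM in the untreated pools. It was the one member with a read pair in all 3 CD8 untreated pools. In CD4 cells Cpa3 stood at 13.4, 14.6 and 8.68 CPM in the RUX+CSA pools, 10.1, 1.49 and 9.18 in the CSA pools, 7.45, 5.55 and 3.77 in the RUX pools, and 0.0330, 0 and 1.26 CPM in the untreated pools, again with no overlap between treated and untreated.

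The IgE receptor chains were lower. Fcer1a stood at 2.30, 2.76 and 1.12 CPM in the CD8 RUX+CSA pools, 0.398, 0.209 and 1.50 in the CSA pools, 0.531, 1.18 and 0.120 in the RUX pools, and 0, 0 and 0.133 CPM in the untreated pools. In CD4 cells it stood at 5.43, 4.23 and 1.84 CPM in the RUX+CSA pools, 3.64, 0.744 and 1.91 in the CSA pools, 0.387, 1.73 and 1.11 in the RUX pools, and 0, 0 and 0.632 CPM in the untreated pools. The RUX pools overlapped the untreated pools in both cell types, and the RUX+CSA and CSA pools did not. Ms4a2 stood at 2.68, 1.97 and 1.12 CPM in the CD8 RUX+CSA pools, 0.181, 0 and 1.67 in the CSA pools, 0.0966, 1.03 and 0.200 in the RUX pools, and had no read pair in any CD8 untreated pool. Against a floor of 3 counts over the untreated group, its CD8 level in summed counts was at least 40.7-fold higher with RUX+CSA, at least 14.7-fold with CSA and at least 9.15-fold with RUX. CSA pool 6 held 51 of the 56 CSA counts and RUX pool 8 held 21 of the 28 RUX counts, and without them these bounds were 2.09-fold with CSA and 3.31-fold with RUX. In CD4 cells Ms4a2 stood at 5.43, 4.10 and 2.28 CPM in the RUX+CSA pools, 2.25, 0.939 and 1.59 in the CSA pools, 0.626, 1.73 and 0.726 in the RUX pools, and 0, 0 and 0.684 CPM in the untreated pools. Of its transcripts' 50-base stretches, 2.098% are also in Ms4a4b, a gene of T cells, which stood at 2400 ± 212 CPM in CD8 untreated libraries (SD, n = 3) where Ms4a2 had no count. For Cd200r3 2.79% of such stretches are shared with other genes, and for the other 5 members none are.

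Gata2 stood at 3.49, 3.18 and 2.72 CPM in the CD8 RUX+CSA pools, 0.615, 0.292 and 1.80 in the CSA pools, 1.74, 1.72 and 0.720 in the RUX pools, and 0, 0 and 0.133 CPM in the untreated pools. In CD4 cells it stood at 7.24, 5.17 and 3.56 CPM in the RUX+CSA pools, 7.55, 2.23 and 2.64 in the CSA pools, 2.74, 2.15 and 0.919 in the RUX pools, and 0, 0 and 2.68 CPM in the untreated pools. Untreated pool 15 thus lay above 2 of the 3 CSA and 2 of the 3 RUX pools, and below all 3 RUX+CSA pools. Cd200r3 was the lowest member, at 0.847, 1.26 and 0.968 CPM in the CD8 RUX+CSA pools, 0.0724, 0.0418 and 0.457 in the CSA pools, 0.580, 0.442 and 0.160 in the RUX pools, and 0.0806, 0.0574 and 0 CPM in the untreated pools. In CD4 cells it stood at 1.05, 2.67 and 0.390 CPM in the RUX+CSA pools, 0.696, 0.196 and 0.0454 in the CSA pools, 0, 0.257 and 0.629 in the RUX pools, and 0.0330, 0.434 and 0.105 CPM in the untreated pools, with overlap between every treated group and the untreated group. The 12 counts in CD4 untreated pool 14 were that library's only reads of any member.

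By group mean, CD4 RUX+CSA was the highest of the 8 groups for each of the 7 genes, and CD8 RUX+CSA came next for all but Fcer1a and Gata2, for which CD4 CSA lay between them. An untreated group was lowest for each gene. The ranges of neighbouring groups in this order overlapped for Fcer1a, Ms4a2 and Gata2 at every step. For Mcpt8 and Cpa3 the gap was between CD4 RUX+CSA and CD8 RUX+CSA, for Cd200r3 it was between CD8 RUX+CSA and CD8 RUX, and for Prss34 it was between CD8 RUX and CD8 untreated.

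The CD4 comparisons used libraries that did not serve to choose the genes, although CD4 results were also known from earlier work on these data. Whether these libraries came from other mice than the CD8 pools is not stated in the labels, so they may not be independent of the choice. Between CD4 RUX+CSA and CD4 untreated libraries, 2 of the 7 members passed the threshold of an adjusted p of 0.05 and both were higher, against a background of 1.02% of 13175 tested genes called higher. Prss34 averaged 61.4 ± 22.4 CPM with RUX+CSA and 0.0351 ± 0.0608 CPM untreated (SD, n = 3 each; log2 10.95, SE 1.23, edgeR quasi-likelihood adjusted p = 0.00555). Mcpt8 averaged 34.6 ± 8.41 CPM with RUX+CSA and 0.474 ± 0.820 CPM untreated (SD, n = 3 each; log2 6.43, SE 1.28, edgeR adjusted p = 0.0464). Of the others, 3 came near the threshold, Cpa3 at log2 4.99 (SE 1.21, edgeR adjusted p = 0.0710), Ms4a2 at 4.23 (SE 1.16, adjusted p = 0.0755) and Fcer1a at 4.32 (SE 1.23, adjusted p = 0.0887), and Cd200r3 (2.81, SE 1.36, adjusted p = 0.313) and Gata2 (2.64, SE 1.38, adjusted p = 0.370) did not. In 6 of the 7 all RUX+CSA pools lay above all untreated pools, which held for 10.9% of tested genes. The members' median log2 difference was 4.32, beside -0.0069 over all tested genes.

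The number of calls changed with each library left out. Without untreated pool 15, in which all 7 genes had reads, 6 members passed, all but Cd200r3, and 5 of them then had no untreated count. Leaving out any other CD4 library left Prss34 as the 1 called member, with Mcpt8 at adjusted p values of 0.0518 to 0.121 in edgeR. Such fits with 1 CD4 library left out called 58 to 293 genes in all. DESeq2 called 5 members (Prss34, Mcpt8, Fcer1a, Ms4a2 and Cpa3) and limma voom none. In all, DESeq2 called 883 genes, limma voom 118 and edgeR 233.

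Between CD4 CSA and CD4 untreated libraries 1 of 7 members passed, beside 1% of tested genes called higher. Prss34 averaged 14.2 ± 10.8 CPM with CSA and 0.0351 ± 0.0608 CPM untreated (SD, n = 3 each; log2 8.84, SE 1.25, edgeR adjusted p = 0.0127). The other 6 ran from log2 0.71 (Cd200r3, SE 1.34, edgeR adjusted p = 0.846) to 4.56 (Mcpt8, SE 1.23, edgeR adjusted p = 0.128). All CSA pools lay above all untreated pools for 5 members, against 10.2% of tested genes. The call of Prss34 was lost without untreated pool 13, untreated pool 15 or CSA pool 18 (edgeR adjusted p = 0.0501 to 0.0527), and without untreated pool 15 another 5 members passed, Mcpt8, Fcer1a, Ms4a2, Cpa3 and Gata2. Fits with 1 CD4 library left out called 48 to 204 genes in all. DESeq2 called Prss34, Fcer1a and Cpa3, and limma voom none. In all, DESeq2 called 655 genes, limma voom 156 and edgeR 195.

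Between CD4 RUX and CD4 untreated libraries edgeR called no member and none of the 13175 genes, 0% of those tested. Prss34 averaged 12.8 ± 6.65 CPM with RUX and 0.0351 ± 0.0608 CPM untreated (SD, n = 3 each; log2 8.70, SE 1.25, edgeR adjusted p = 0.497). Unadjusted, Prss34, Mcpt8 and Cpa3 had a p under 0.05, and 4.16% of all genes did. DESeq2 called Prss34 (adjusted p = 2.23e-08) among 12 genes in all, and limma voom no gene. In edgeR without untreated pool 15 Cpa3 and Gata2 passed, and fits with 1 CD4 library left out called 0 to 15 genes in all. All RUX pools lay above all untreated pools for 3 members, Prss34, Mcpt8 and Cpa3, against 4.44% of tested genes. The 3 comparisons share the untreated libraries, so their members' values are not independent of each other.

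**Figure D3:**
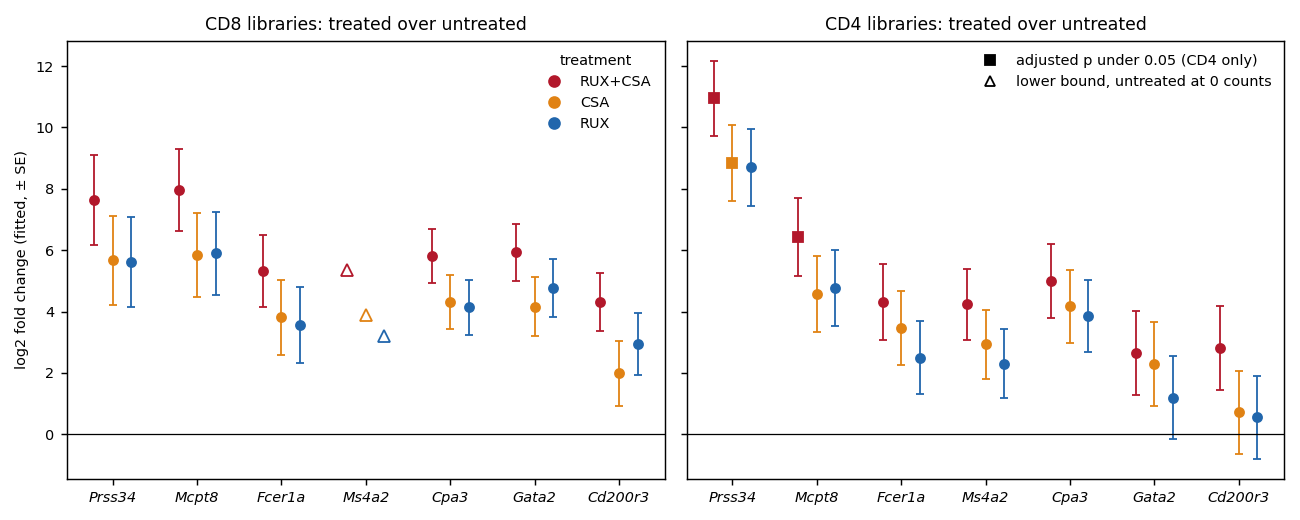
Fitted log2 fold change ± SE of each gene for the 3 treatments over untreated in CD8 and CD4 libraries (n = 3 pools a group); squares mark an adjusted p under 0.05 in CD4, and open triangles are lower bounds where untreated libraries had no count. In CD4 the called values are Prss34 with RUX+CSA and CSA and Mcpt8 with RUX+CSA, and in CD8, where the genes were picked, all values lie above 0 and were not tested.

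In CD8 cells the same values are a description. All RUX+CSA pools lay above all untreated pools for 7 of 7 members, which also held for 21.7% of 12684 tested genes. Log2 differences with RUX+CSA ran from 4.32 (Cd200r3, SE 0.95) to 7.96 (Mcpt8, SE 1.34), leaving out Ms4a2, whose untreated level was 0, and the median over the 7 with Ms4a2 at its bound was 5.80. With CSA the median was 4.16, or 3.18 without CSA pool 6 and RUX pool 7, and 5 members did not overlap with untreated (8.81% of tested genes). With RUX it was 4.14, or 3.93 without the same pools, and 6 members did not overlap with untreated (6.38% of tested genes). The ratio of summed counts of RUX+CSA to untreated was 208 for Prss34, 269 for Mcpt8, 57.6 for Cpa3 and 67.2 for Gata2 in CD8, from 9, 4, 9 and 3 untreated counts. Their exact 95% counting intervals were 109 to 456 for Prss34, 105 to 989 for Mcpt8, 30.2 to 126.6 for Cpa3 and 22.7 to 328 for Gata2. All untreated counts of Prss34, Mcpt8 and Gata2 lay in CD8 pool 3, so without that library these 3 ratios have no denominator.

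The drugs together were next set against each drug alone in CD4 cells, in comparisons that share the RUX+CSA libraries. Prss34 averaged 61.4 ± 22.4 CPM with RUX+CSA and 14.2 ± 10.8 CPM with CSA (SD, n = 3 each; log2 2.11, SE 0.67, edgeR adjusted p = 0.320). Against RUX alone, at 12.8 ± 6.65 CPM, the log2 difference of Prss34 was 2.25 (SE 0.67, edgeR adjusted p = 0.167). No member passed in either comparison with edgeR, DESeq2 or limma voom. Prss34 alone had an unadjusted edgeR p under 0.05 in each. All RUX+CSA pools lay above all CSA pools for 3 members (Prss34, Mcpt8 and Ms4a2), against 8.15% of tested genes, and above all RUX pools for 6, all but Cd200r3, against 11% of tested genes. The background of genes called higher was 0.182% against CSA and 0.577% against RUX. In CD8 cells, as a description, all RUX+CSA pools lay above all CSA pools for 5 members and above all RUX pools for 6, against 11.4% of tested genes in each, with median log2 differences of 1.77 over CSA and 1.76 over RUX.

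Between the single drugs, RUX over CSA, the means of Prss34 differed by less than the spread of their pools. Prss34 averaged 7.07 ± 4.38 CPM with RUX and 7.27 ± 8.88 CPM with CSA in CD8 cells (SD, n = 3 each; log2 -0.05, SE 0.95, edgeR adjusted p = 1). In CD4 cells it averaged 12.8 ± 6.65 CPM with RUX and 14.2 ± 10.8 CPM with CSA (SD, n = 3 each; log2 -0.14, SE 0.65, edgeR adjusted p = 0.947). No member passed in either cell type by edgeR, DESeq2 or limma voom, none had an unadjusted edgeR p under 0.05, and every member's pools overlapped. The background called in either direction was 0% in CD8 and 2.52% in CD4. Pools without overlap were found for 3.06% of genes higher and 2.77% lower with RUX in CD8, and for 12.3% and 12.1% in CD4. The SEs of the 7 log2 differences ran from 0.64 to 1.22 in CD8 and from 0.65 to 1.31 in CD4. The CD8 values changed without RUX pool 7 and CSA pool 6. Without both, edgeR called 457 of 12799 genes, 3.57%, in CD8, and still no member. All 7 members were then higher with RUX than with CSA, with a median log2 difference of 1.73. Prss34 was at log2 1.73 (SE 0.97, edgeR adjusted p = 0.440). Both pools were left out for lying nearer to the other single drug in these same data. A wider difference between the drugs is thus partly built in by the choice. The test of whether RUX and CSA together differed from the sum of their single effects on the log scale in CD4 gave no call by edgeR, where 0% of genes passed. Prss34 was at log2 -6.58 (SE 1.57, unadjusted p = 0.00222, edgeR adjusted p = 0.797), and DESeq2 called it among 17 genes in all. The size of this value rests on its CD4 untreated level, 2 read pairs in pool 15 alone, under the floor of 3 counts. In CPM its CD4 means were 61.4 with RUX+CSA, 14.2 with CSA, 12.8 with RUX and 0.0351 untreated.

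Across cell types, no member passed between CD8 and CD4 libraries of CSA-treated mice, beside 26.3% of 13476 genes called in either direction, or of RUX-treated mice, beside 17.9%. Gata2 averaged 0.901 ± 0.792 CPM in CD8 CSA and 4.14 ± 2.96 CPM in CD4 CSA libraries (SD, n = 3 each; log2 -2.18, SE 1.08, edgeR adjusted p = 0.145), with no overlap. Limma voom called Gata2 there, as did edgeR without CD4 untreated pool 15, while DESeq2 called no member. Without CD8 CSA pool 6 and CD8 RUX pool 7, edgeR called Ms4a2 instead. In all, limma voom called 3655 genes there, DESeq2 3973 and edgeR without both of these CD8 pools 3178. Mcpt8 averaged 3.99 ± 2.52 CPM in CD8 RUX and 10.9 ± 3.11 CPM in CD4 RUX libraries (SD, n = 3 each; log2 -1.45, SE 0.95, edgeR adjusted p = 0.317), with no overlap. None of the 7 had an unadjusted edgeR p under 0.05 in either comparison, and DESeq2 and limma voom called none in RUX-treated mice. Pools that do not overlap and are lower in CD8 were found for 22% of genes under CSA and 17.8% under RUX. The labels do not say whether CD8 and CD4 pools came from the same mice.

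The shares of the members varied between treated libraries. Over 18 treated libraries, all with at least 50 counts of the 7 genes, Prss34 made up 21.2% to 52.2% of them (median 43.2%), Mcpt8 19.2% to 37.0% (median 26.6%) and Cpa3 9.04% to 34.6% (median 14.9%). Gata2 made up 3.50% to 18.1%, Fcer1a 0.979% to 9.62%, Ms4a2 0% to 7.62% and Cd200r3 0% to 3.92%. Prss34 was the largest share in 16 of the 18, Cpa3 in CD8 CSA pool 5 and Mcpt8 in CD4 RUX pool 21. CD4 untreated pool 15, the one untreated library with 50 counts or more, was unlike them. There Prss34 made up 1.53% and Gata2 38.9% of the counts, both outside the range of all 18 treated libraries.

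**Figure D4:**
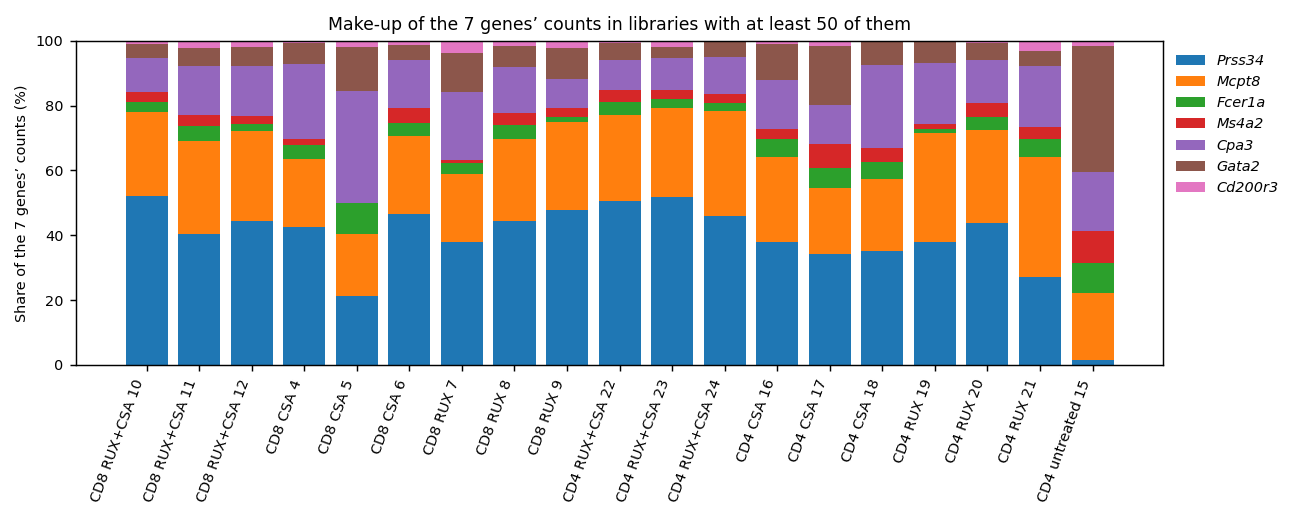
Share of each gene in the counts of the 7 genes (%, bars sum to 100) for the 19 libraries with at least 50 such counts. Prss34 and Mcpt8 are the largest shares in most treated libraries, and Gata2 is the largest share in CD4 untreated 15, where Prss34 is 1.53%.

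The log2 CPM of the members varied together from library to library. Over the 12 CD8 libraries Pearson's r between pairs was 0.877 to 0.996 for the 15 pairs without Cd200r3 and 0.837 to 0.873 for the 6 pairs with it. Over the 12 CD4 libraries it was 0.840 to 0.988 without Cd200r3 and 0.324 to 0.555 with it. These points share libraries and treatment groups, and the values are descriptions. Of 13469 other genes, the 8 most like the members' mean by the smaller of the CD8 and CD4 correlations were Cebpd (0.904), Ankrd33b (0.891), Emilin2 (0.884), Ppp1r42 (0.883), Clec4d (0.879), Panct2 (0.878), Csf3r (0.875) and Cyp4f18 (0.874), over 12 libraries each. Csf3r, the receptor for G-CSF, averaged 39.7 CPM in CD4 RUX+CSA, 39.9 in CD4 CSA, 19.1 in CD4 RUX and 11.0 CPM in CD4 untreated libraries. In CD8 libraries it averaged 24.5 CPM with RUX+CSA, 8.79 with CSA, 10.3 with RUX and 2.79 CPM untreated.

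Neutrophil granule genes moved with the 7 genes in CD8 and in some CD4 comparisons, and their part in the result was not tested. In CD8, as a description, all 14 neutrophil genes and all 7 members were higher with RUX+CSA than untreated, with CSA and with RUX. The neutrophil median log2 differences there were 2.92, 1.37 and 1.06. All 14 and all 7 were also above 0 in CD4 RUX+CSA over untreated and over RUX, and in CD4 CSA over untreated. In CD4 RUX over untreated all 7 members and 10 of the 14 neutrophil genes were. In CD4 RUX+CSA over CSA all 7 members were (median 1.30), and 4 of the 14 neutrophil genes were (median -0.15). In CD4 libraries the neutrophil sum was 8231 to 10291 CPM with RUX+CSA, 3480 to 16991 with CSA, 4000 to 7786 with RUX and 94.1 to 8677 CPM untreated. None of the 14 passed in CD4 RUX+CSA against untreated by edgeR or limma voom, while DESeq2 called 1, Mmp9, the only one with an unadjusted edgeR p under 0.05, and their median log2 difference was 1.32, beside 4.32 for the 7 members. Untreated pool 15 had a neutrophil sum inside the RUX+CSA range, 8677 CPM. There Prss34 stood at 0.105 CPM, Mcpt8 at 1.42, Cpa3 at 1.26 and Fcer1a at 0.632 CPM. Ms4a2 stood at 0.684, Gata2 at 2.68 and Cd200r3 at 0.105 CPM in that pool. For each 1000 CPM of neutrophil genes, the 7 members summed to 9.39 to 15.8 CPM in CD4 RUX+CSA, 3.54 to 5.25 in CD4 CSA, 4.47 to 10.4 in CD4 RUX and 0.0411 to 4.62 CPM in CD4 untreated libraries. In CD8 this was 10.1 to 13.5 with RUX+CSA, 2.54 to 10.8 with CSA, 3.17 to 8.73 with RUX, and 0.315, 13.7 and 0.723 CPM untreated, where the high value is pool 2, with the lowest neutrophil sum of all libraries. In CD4 RUX+CSA against untreated, 4 of 7 tested B cell genes and 1 of 6 tested erythroid genes were also called higher, and 5 of 10 macrophage and monocyte genes lower, beside 1.02% of all tested genes called higher and 0.744% lower. The part of these cells was not tested either.

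**Figure D5:**
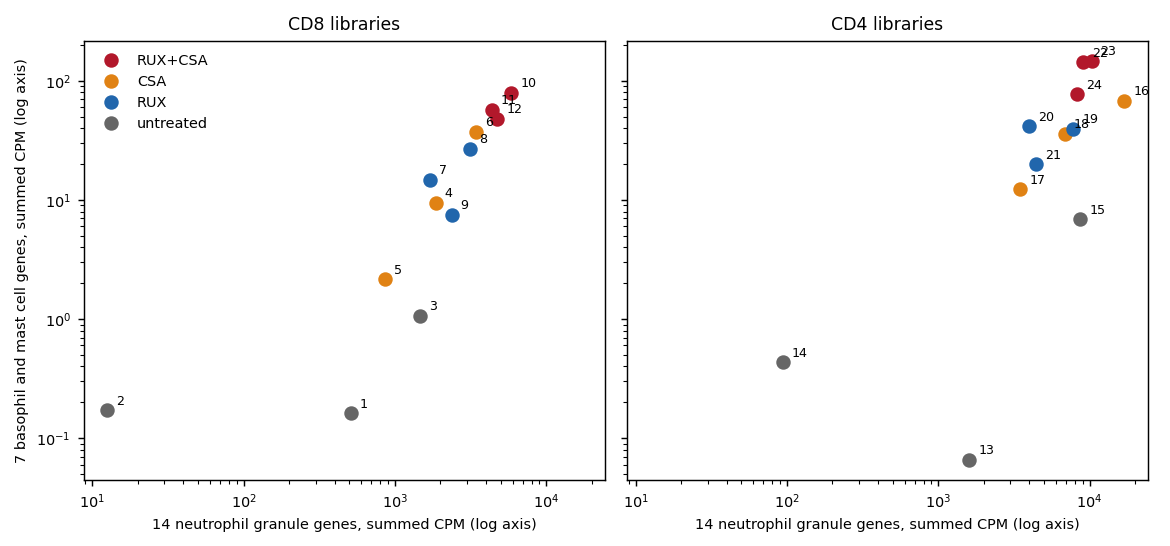
Summed CPM of the 7 genes against summed CPM of 14 neutrophil granule genes (both log axes), 1 point a library, labelled with its pool number. The CD4 RUX+CSA points include the highest sums of the 7 genes, CD4 CSA pool 16 has the highest neutrophil sum (16991 CPM, with 67.9 CPM of the 7 genes), and CD4 untreated pool 15 has a neutrophil sum of 8677 CPM with 6.89 CPM of the 7 genes.

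Proteases and a receptor that mark mature mast cells were at or near 0, while the receptor gene Kit was not, also in untreated libraries. Kit averaged 26.6 CPM with RUX+CSA, 13.6 with CSA, 17.6 with RUX and 12.7 CPM untreated in CD8. Its CD4 means were 20.2 CPM with RUX+CSA, 15.2 with CSA, 10.4 with RUX and 9.44 CPM untreated. The tryptases Tpsb2 and Tpsab1, the chymase Cma1, the proteases Mcpt1, Mcpt2, Mcpt4 and Mcpt9 and the receptor Mrgprb2 held 67 counts together over all 24 libraries, against 10581 for Prss34 and 6376 for Mcpt8. Mcpt1 had no count, Cma1 had 32 counts in 11 libraries, and Tpsb2 had 16 of its 17 counts in 1 library, CD8 RUX+CSA pool 11.

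Of 35 other genes known from basophils or mast cells, 24 were tested in CD4. Against untreated, 1 was called higher with RUX+CSA, beside 1.02% of all tested genes, and 2 with CSA, beside 1%, and none was called lower. At an unadjusted edgeR p under 0.05 there were 6 of the 24 with RUX+CSA, beside 16.9% of all tested genes, and 6 with CSA, beside 16.2%. With RUX edgeR, DESeq2 and limma voom called none, and 2, Slc18a2 and Ccr3, had an unadjusted edgeR p under 0.05, beside 4.16%. The median log2 difference with RUX+CSA was 0.11, beside -0.0069 over all genes. Ifitm1, an interferon-induced membrane protein gene, averaged 28.3 ± 5.28 CPM in CD4 RUX+CSA, 31.7 ± 1.25 in CD4 CSA, 12.9 ± 3.89 in CD4 RUX and 12.5 ± 2.92 CPM in CD4 untreated libraries (SD, n = 3 each). It rose with RUX+CSA over untreated (log2 1.17, SE 0.23, edgeR adjusted p = 0.0227), with CSA over untreated (log2 1.34, SE 0.23, edgeR adjusted p = 0.0122) and with RUX+CSA over RUX (log2 1.13, SE 0.23, edgeR adjusted p = 0.0363). It was lower with RUX than with CSA (log2 -1.30, SE 0.23, edgeR adjusted p = 0.00877). Of 12 fits with 1 CD4 library left out, Ifitm1 stayed called in 8 for RUX+CSA over untreated, 11 for CSA over untreated, 7 for RUX+CSA over RUX and 12 for RUX over CSA. Gata1, a transcription factor of erythroid cells, megakaryocytes, mast cells and basophils, averaged 6.02 ± 1.41 CPM in CD4 RUX+CSA, 9.16 ± 4.06 in CD4 CSA, 1.02 ± 0.270 in CD4 RUX and 1.13 ± 1.39 CPM in CD4 untreated libraries (SD, n = 3 each). It was called higher with CSA than untreated (log2 3.07, SE 0.71, edgeR adjusted p = 0.0487) and lower with RUX than with CSA (log2 -3.15, SE 0.70, edgeR adjusted p = 0.0313). Both calls of Gata1 were lost on leaving out most single libraries. The call over untreated was kept in 1 of 12 such fits, that without untreated pool 15, and was also lost without the low-count filter, and the call against CSA was kept in 4 of 12, those without untreated pool 13, 14 or 15 or CSA pool 17. Erythroid marker genes ran alongside it, at 110 to 386 CPM summed in CD4 RUX+CSA, 205 to 313 in CSA, 28.6 to 63.6 in RUX and 2.61 to 57.2 CPM in untreated libraries, and their part was not tested.

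The 6 most abundant of these other genes are also transcribed in T cells or other leukocytes and did not pass in any CD4 comparison or in CD8 RUX against CSA. Lilrb4a, an inhibitory receptor gene, averaged 407 ± 109 CPM in CD4 RUX+CSA and 554 ± 122 CPM in CD4 untreated libraries (SD, n = 3 each; log2 -0.44, SE 0.31). Hdc, the histamine-forming enzyme of basophils, mast cells and some neutrophils, averaged 43.1 ± 6.17 CPM with RUX+CSA and 26.5 ± 31.5 CPM untreated in CD4 (SD, n = 3 each; log2 0.72, SE 1.19). Il1rl1, the receptor for interleukin 33, averaged 33.9 ± 2.02 CPM with RUX+CSA and 47.3 ± 11.2 CPM untreated (SD, n = 3 each; log2 -0.48, SE 0.23), and Il3ra, the alpha chain of the interleukin 3 receptor, 18.9 ± 1.18 CPM with RUX+CSA and 19.9 ± 4.05 CPM untreated (SD, n = 3 each; log2 -0.08, SE 0.18). Fcer1g, the signalling gamma chain shared by IgE and IgG receptors, had a log2 difference of 0.20 (SE 0.55), and Alox5, the first enzyme of leukotriene synthesis, one of 1.58 (SE 1.22).

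Among 12 genes of the IgE receptors and their signalling, all tested in CD4, none passed with RUX+CSA over untreated by edgeR or limma voom, beside 1.77% of all genes in either direction by edgeR. DESeq2 called 1, Fcer2a, the only one with an unadjusted edgeR p under 0.05. Fyn, a Src-family kinase of T cells and mast cells, was lower with CSA than untreated, at 664 ± 73.5 CPM with CSA and 931 ± 35.5 CPM untreated (SD, n = 3 each; log2 -0.49, SE 0.09, edgeR adjusted p = 0.0196). It was higher with RUX, at 984 ± 62.2 CPM, than with CSA (log2 0.57, SE 0.09, edgeR adjusted p = 0.00553). Fcer2a, the low-affinity IgE receptor CD23 of B cells, averaged 2.89 ± 1.90 CPM in CD4 RUX+CSA libraries, from 227 counts, and had no count in CD4 RUX libraries (edgeR adjusted p = 0.0490). That call was kept in 5 of 12 fits with 1 CD4 library left out, those without untreated pool 13, 14 or 15, CSA pool 18 or RUX+CSA pool 24, and limma voom did not make it. Fyn stayed called in 10 of the 12 for CSA over untreated, all but those without CSA pool 16 or 18, and in all 12 for RUX over CSA. B cell marker genes ran alongside Fcer2a, at 12.9 to 75.3 CPM summed with RUX+CSA and 2.47 to 3.49 CPM with RUX in CD4, and their part was not tested.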

How the data were processed

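RNA was measured in 24 libraries of CD8 or CD4 cells sorted from marrow, made with the SMART-Seq mRNA LP kit per the labels. The deposited values are raw counts of read pairs per gene. Per the file headers, featureCounts 2.0.3 counted them over exons of a UCSC mm10 annotation without strand. STAR and mm10 are named in the submitters' processing notes, and the STAR version is not given in the sources used here. Antisense reads therefore cannot be told from sense reads.

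From the counts, edgeR 4.0.16 (R 4.3.3) gave TMM-scaled CPM and robust quasi-likelihood tests after filterByExpr. One fit covered the 12 libraries of a cell type (12684 genes in CD8, 13175 in CD4), or all 24 for CD8 against CD4 (13476). All 7 members passed the filter. Adjusted p-values are two-sided Benjamini-Hochberg values over all tested genes, with a threshold of 0.05. Each SE of a log2 difference was derived from the edgeR test, as the size of the difference over the square root of its F statistic. It is not a separately fitted error. Log2 CPM for correlations used a prior count of 2. Counting intervals are exact 95% intervals and, like the floor of 3 counts, cover counting error only. Alternatives were RLE factors, no filter beyond 1 count, DESeq2 1.42.0, limma 3.58.1 voom, each library left out in turn, and CD8 RUX pool 7 and CSA pool 6 left out together, since earlier work on these data found each nearer to the other single drug. The scripts were tested on simulated data.

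The members, gene lists, tests and alternatives were chosen with earlier results of these data known. The 7 members were always named; other listed genes were named where they passed in a CD4 comparison or in CD8 RUX against CSA (up to 6 a comparison by p), or else as the 6 of highest mean CPM; 8 genes were named by likeness. IgE-list genes that passed, and Kit, were named after their values were seen. Promoter windows are RefSeq's for GRCm38.p6. The values reported use all 24 libraries unless stated.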

Additional observations from a re-analysis of the deposited data

How the results depend on the processing

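No paired analysis was possible because the pools are numbered 1 to 24 without repeats, so the groups share no replicate number. In 8 of the 10 tested comparisons the reported count of called members is 0, and a count that stays at 0 is no sign of stability. For CD4 RUX+CSA against untreated (2 members) the count was 1 without the filter, 5 with DESeq2, 0 with voom, and 1 to 6 with a library left out, so that RLE was the one setting that left it as reported. For CD4 CSA against untreated (1 member) it was 3 with DESeq2, 0 with voom, and 0 to 5 with a library left out. For CD4 RUX against untreated (0 members) it was 1 with DESeq2 and 0 to 2 with a library left out. For the CD4 interaction (0) it was 1 with DESeq2. For CD8 CSA against CD4 CSA (0) it was 1 with voom, 1 without CD8 CSA pool 6 and CD8 RUX pool 7 together, and 0 to 1 with a library left out. RLE factors changed no count.

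In CD8 RUX against CSA, the log2 differences of Prss34, Fcer1a, Ms4a2 and Cpa3 turned from below to above 0 without RUX pool 7 and CSA pool 6. In the differences from untreated, and in those of CD4 RUX+CSA from each single drug, only Cd200r3 changed direction. Its CD4 log2 difference from untreated with CSA ran from -0.63 (without CSA pool 16) to 2.22 (without untreated pool 14). With RUX it ran from -0.58 (without RUX pool 21) to 2.06 (without untreated pool 14), and was -0.25 under voom. The cause was not tested. Without untreated pool 15, Prss34, Mcpt8, Fcer1a, Ms4a2 and Gata2 have no count left in CD4 untreated libraries, so their fitted differences then depend on the prior count and are not bounds. DESeq2 called 883 genes in all for CD4 RUX+CSA against untreated, voom 118 and edgeR 233. Depth limits the untreated levels in CD8, which rest on 0 (Ms4a2) to 9 (Prss34 and Cpa3) counts a gene. In CD4 they rest on 2 (Prss34) to 51 (Gata2) counts, most of them in pool 15 for all members but Cd200r3.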
